A study of Arabidopsis thaliana with 116 samples.

Results

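CC-type glutaredoxins are small proteins of land plants, and 10 of the genes that encode them in Arabidopsis thaliana are described here across root and shoot, 2 hormones and a time course. They were picked out by locus identifier, and all 10 are among the 27655 genes of the count table. They are GRX480 (AT1G28480), GRXS13 (AT1G03850), AT5G18600, AT3G62930, AT1G03020, and 5 neighbouring genes on chromosome 4 (AT4G15660, AT4G15670, AT4G15680, AT4G15690 and AT4G15700). Messenger RNA had been sequenced from wild-type Col-0 seedlings that were moved, after 5 days of growth on mesh, to fresh agar with 2 µM abscisic acid (ABA, the hormone of water deficit), with 150 µM salicylic acid (SA, a hormone of pathogen defence) or with no added hormone (control). Roots and shoots were harvested separately at 1, 2, 4, 7, 24 and 48 h under all 3 conditions, and control seedlings also at 0 h. This gave 38 groups of 3 libraries, or 4 at 0 h, with 58 libraries for each organ. The replicates are called biological in the study's design text, and all groups share the Col-0 background and the transfer to new plates.

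Library totals were 5031509 to 102576624 counts in the 58 root libraries. In shoot they were 5394870 to 221250466, apart from the control library 7 h replicate 1, which held 46189 counts and 1 read of any member, so shoot control levels at 7 h are given below for the other 2 libraries. Across all times, the shoot markers RBCS1A, CAB1, RBCS2B and LHCB2.3 summed to 15163 to 66976 CPM (counts scaled by library size) in shoot and to 3.81 to 93.4 CPM in root. The root hair genes EXPA7 and SHV2 had medians of 38.2 and 24.4 CPM in root against 0.326 and 0.218 CPM in shoot, whereas PYK10, also listed as a root marker, was high in both tissues (medians 3078 and 2311 CPM). In whole organs, fewer cells of a type and less RNA per cell cannot be told apart. CPM values were scaled within each tissue, and a difference is called where the adjusted p of edgeR's quasi-likelihood test, with Benjamini-Hochberg adjustment over all genes tested, was under 0.05.

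Glutaredoxins use glutathione to reduce disulfide bonds or to carry metal clusters. The CC type, named for a pair of neighbouring cysteines in its active site, is found only in land plants, and several of its members are known to bind TGA transcription factors of the bZIP family and, through their last residues, TOPLESS corepressors. GRX480 is known to be induced by SA through TGA factors and the SA receptor NPR1 and to damp jasmonate and ethylene defence genes when overproduced, and other family members are known to respond to nitrate.

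The coding sequence around the active site shows how the members differ and which of them are close copies. The 12 bases of the site, in capitals, begin with the codons of the paired cysteines, and 24 bases are shown on each side. All stretches are from the coding strand, read from the RefSeq annotation of TAIR10.1, and are written 5′ to 3′.
GRX480: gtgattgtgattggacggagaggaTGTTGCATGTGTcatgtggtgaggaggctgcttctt
GRXS13: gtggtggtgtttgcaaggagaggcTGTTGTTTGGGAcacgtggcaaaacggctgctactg
AT5G18600: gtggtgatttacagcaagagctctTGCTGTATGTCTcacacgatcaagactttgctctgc
AT3G62930: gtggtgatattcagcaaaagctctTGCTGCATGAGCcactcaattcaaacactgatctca
AT1G03020: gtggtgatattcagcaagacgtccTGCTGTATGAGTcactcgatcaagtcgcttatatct
AT4G15660: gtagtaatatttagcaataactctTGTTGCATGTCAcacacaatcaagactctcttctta
AT4G15670: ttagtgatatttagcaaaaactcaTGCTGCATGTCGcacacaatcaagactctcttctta
AT4G15680: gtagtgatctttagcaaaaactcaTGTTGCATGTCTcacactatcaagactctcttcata
AT4G15690: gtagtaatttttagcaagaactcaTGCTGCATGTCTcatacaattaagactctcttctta
AT4G15700: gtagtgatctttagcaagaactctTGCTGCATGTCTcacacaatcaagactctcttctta
A further cysteine codon closes the site in GRX480 and in no other member. GRX480 and GRXS13 also have the longest coding sequences, 414 and 480 bases, against 309 bases in each of the other 8 members.

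GRX480 lies at chr1:10013434-10014256 on the minus strand and has its coding sequence in 1 exon, while GRXS13, at chr1:975871-977911 on the same strand, has 2 coding exons and 3 annotated transcripts. AT5G18600 is at chr5:6183166-6184038, AT3G62930 at chr3:23261442-23261927 and AT1G03020 at chr1:697919-698591, all on the minus strand with 1 coding exon. The chromosome 4 genes lie head to tail on the plus strand within 12554 bases, from AT4G15660 at chr4:8925571-8926510 to AT4G15700 at chr4:8937358-8938124, with gaps of 1803 to 2520 bases. No member overlaps another annotated gene. Within the cluster the coding sequences are 88.3 to 93.2% identical over 10 pairs, with a longest shared run of 71 bases, against 47.8 to 74.7% for the other 35 pairs of members.

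That likeness leaves the counts of the 5 cluster genes uncertain, since reads can be split between close copies. Searched as exact matches, 0 of the 150-base windows and 0 of the 75-base windows of any member's exons occurred elsewhere in the genome, 150 bases being the read length. Of 50-base windows, 0.6 to 4.7% of those of a cluster gene occurred in another cluster gene and 0 of those of the other 5 members. Each cluster gene is therefore reported on its own and as the summed counts of the 5.

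At 0 h the members divided sharply by tissue. All 10 were called between root and shoot, where 80.2% of all genes tested were called, 8 of them lower in root and 2, GRX480 and GRXS13, higher there, against 42.2% and 38.1% of all genes. On a scale of CPM per kilobase of exon, comparable between genes and scaled over both tissues, the highest level in shoot was that of AT5G18600, 70.6 ± 3.58 (SD, n = 4), followed by AT3G62930 with 28.2 ± 1.98. The cluster genes AT4G15690, AT4G15700 and AT4G15680 followed with 19.7 ± 1.28, 18.8 ± 2.11 and 18.7 ± 0.689, means that differed by less than the largest of their SDs. Next came GRXS13 with 12.6 ± 4.82 and AT4G15670 with 8.44 ± 1.69, which differed by less than the SD of GRXS13, and AT4G15660 with 5.06 ± 0.514. The lowest in shoot were GRX480, 0.731 ± 0.176, and AT1G03020, 0.688 ± 0.175, again indistinguishable.

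In root the order was different. GRXS13 led with 27.3 ± 8.51 CPM per kilobase (SD, n = 4), followed by AT3G62930 with 8.30 ± 1.21 and GRX480 with 4.73 ± 0.861, and each of the other 7 was under 0.5, the highest of them being AT4G15680 with 0.482 ± 0.108. GRX480 was 2.72 ± 0.20 higher in root than in shoot on the log2 scale (SE, edgeR adjusted p = 4.02e-22) and GRXS13 1.14 ± 0.33 (adjusted p = 0.00136). AT5G18600 had 10425 reads in the 4 shoot libraries and 1 in the 4 root libraries, a ratio of 11880 in scaled level (95% interval 2132 to 469280, from counting error only). AT1G03020 had 75 reads in shoot and 0 in root, at least 30.1-fold higher in shoot against a floor of 3 counts over the group. Using DESeq2's size factors in place of TMM moved the median of all genes by 0.277 in this comparison and changed no member's direction.

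In control seedlings some members differed from their 0 h level after the transfer. In root, 5 of 9 tested members were called by the joint test of the 6 later times against 0 h, where 87% of all genes tested were, and in shoot 4 of 10, against 63.6%. GRX480 in root was at 5.09, 5.08, 3.50 and 5.32 CPM at 0 h and at 25.5, 28.1 and 22.2 CPM at 1 h, and stood at 10.1, 10.1 and 9.18 CPM at 48 h. No library of 1 h overlapped those of 0 h, and the difference was 2.41 ± 0.15 on the log2 scale (edgeR adjusted p = 1.56e-17). In shoot the same gene was between 0.364 and 0.612 CPM at 0 h, 1.96, 3.19 and 2.06 CPM at 1 h, and 0.537, 0.687 and 0.911 CPM at 48 h, and its rise at 1 h was 2.31 ± 0.23 (adjusted p = 5.38e-10). The control level of GRX480 is thus itself a moving baseline, and the hormone comparisons below are all against controls of the same time.

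AT5G18600 fell in control shoots, from 53.2, 46.1, 49.0 and 47.1 CPM at 0 h to 11.7, 16.0 and 18.2 CPM at 24 h, by 1.67 ± 0.28 on the log2 scale (edgeR adjusted p = 8.54e-06), and was also called lower at 1, 2, 7 and 48 h. GRXS13 fell in control roots at 2 h, from a 0 h range of 36.9 to 69.2 CPM to 15.9, 14.3 and 18.6 CPM, and was called lower at each of the 5 times from 2 to 48 h. Control roots from 2 h on and control shoots from 4 h on have another library-name prefix than those of 0 h. In comparisons of these groups with 0 h, prefix and time cannot be told apart. The joint test among the control groups of 4, 7 and 24 h, whose library names share a prefix, called 4 of 9 members in root, where 68.3% of all genes tested were, and 2 of 10 in shoot, where 33.8% were. Those in shoot were GRX480 and AT5G18600. In root they were GRX480, AT4G15670, AT4G15680 and AT4G15690, the 3 cluster genes being lower at 7 h than at 24 h by 1.35 to 2.18 on the log2 scale (adjusted p of 0.00136 to 0.0197). Leaving out the libraries numbered 1 made the root count 2 and the shoot count 5, and in shoot the count was 1 without those numbered 2 or without those numbered 3. Against 0 h the shoot count was 9 without the libraries numbered 1 and 2 without those numbered 2.

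Under SA, GRX480 and GRXS13 rose in both organs. In root, 27 of the 54 member-by-time comparisons with control were called, 21 higher and 6 lower, where 61.1% of all such gene comparisons were called, 29.9% higher and 31.2% lower, and the joint test over the 6 times called 8 of 9 members, where 92.6% of all genes were. In shoot it was 15 of 60, 12 higher and 3 lower, against 32.2% of all gene comparisons (16.9% higher and 15.4% lower), and 8 of 10 by the joint test, against 70.7%. Of the called comparisons, 12 of 27 in root and 11 of 15 in shoot were those of GRX480 and GRXS13. The shoot counts depended on which replicate number was left out of all groups. Member-by-time calls numbered 37 without the libraries numbered 1 and 8 without those numbered 2. Joint calls numbered 2 without those numbered 2 and 5 without those numbered 3.

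GRX480 in root stood at 163, 151 and 198 CPM after 1 h of SA, against 25.5, 28.1 and 22.2 CPM in the control. It was highest at 2 h, with 248, 231 and 210 CPM against 25.7, 26.3 and 26.3 CPM, and at 48 h it was at 37.0, 44.3 and 43.0 CPM against 10.1, 10.1 and 9.18 CPM. No SA library overlapped a control library at these times. The log2 fold changes of the 6 times were 2.76 ± 0.15, 3.14 ± 0.15, 2.31 ± 0.15, 2.27 ± 0.15, 1.80 ± 0.15 and 2.10 ± 0.16 (SE), all called, with edgeR adjusted p of 6.02e-23 to 5.30e-14. The level in SA roots was thus lower at 48 h than at 2 h, as was the control.

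In shoot the fold change of GRX480 was larger at each later time. It was at 8.66, 9.04 and 9.56 CPM after 1 h of SA against 1.96, 3.19 and 2.06 CPM in the control, and at 52.7, 61.8 and 70.8 CPM at 7 h, where the 2 usable control libraries held 1.37 and 1.99 CPM. At 48 h it was at 40.1, 44.8 and 52.2 CPM against 0.537, 0.687 and 0.911 CPM. The groups did not overlap at any of these times. The log2 fold change went from 1.96 ± 0.20 at 1 h through 2.32 ± 0.18, 3.2 ± 0.19, 5.12 ± 0.26 and 5.44 ± 0.22 to 6.0 ± 0.23 at 48 h, all called, with edgeR adjusted p of 7.32e-26 to 3.39e-09.

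GRXS13 in root was at 132, 128 and 133 CPM after 1 h of SA against 28.5, 40.7 and 37.8 CPM, and at 258, 273 and 255 CPM at 48 h against 25.1, 31.5 and 36.1 CPM. The SA libraries were all above the controls, and the log2 fold changes of 1.88 ± 0.26 at 1 h and 3.07 ± 0.27 at 48 h were the first and last of 6 called times (edgeR adjusted p of 3.77e-14 to 3.75e-08). Unlike that of GRX480, its level in SA roots was higher at 48 h than at 1 h. In shoot it was at 30.6, 59.8 and 81.2 CPM at 1 h against 11.8, 26.5 and 35.2 CPM, groups that overlapped, and the difference of 1.22 ± 0.46 was not called (adjusted p = 0.426). At 24 h it was at 146, 227 and 246 CPM against 7.35, 14.1 and 19.7 CPM, with no overlap and a log2 fold change of 3.91 ± 0.50 (adjusted p = 6.25e-09). The calls at 4 and 7 h (1.93 ± 0.46 and 2.78 ± 0.55) were lost without the libraries numbered 2 (1.91 and 2.52, same direction), and that at 2 h (1.45 ± 0.46) under 5 of 10 alternatives, with log2 values of 1.43 to 1.51 in those.

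**Figure D1:**
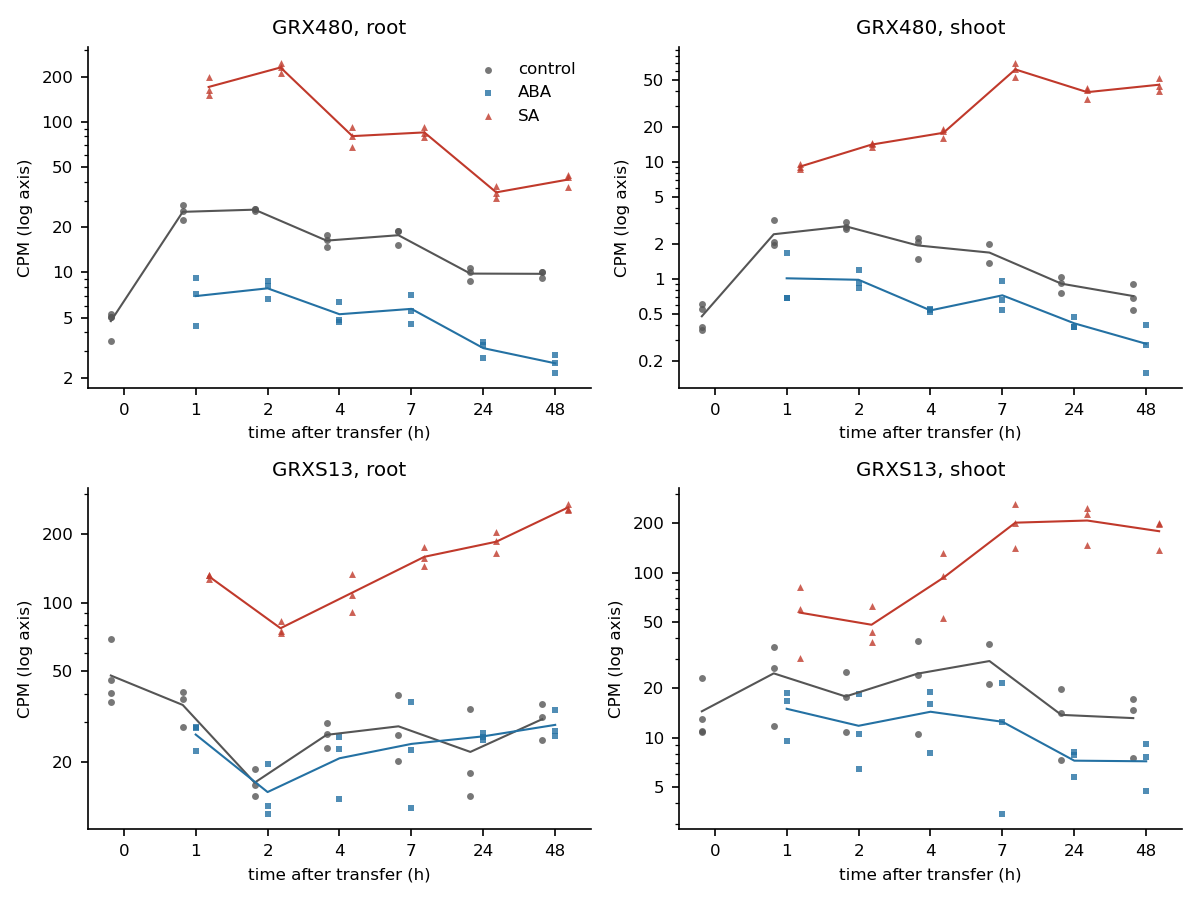
Levels of GRX480 and GRXS13 in CPM on a log axis against hours after transfer, at even spacing here and in the other time plots, in root and shoot, with 1 point per library, lines through the group means and colours for control, SA and ABA. SA libraries lie above the controls for GRX480 at every time in both organs, and ABA libraries lie below them. For GRXS13 the SA libraries lie above the controls, with overlap in shoot at 1 h.

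The libraries of shoot groups shared an order by replicate number. For GRXS13 the library numbered 1 was the lowest in 17 of 17 shoot groups of 3 libraries, as it was for AT4G15700, and in 14 of 17 for AT5G18600 and for the summed cluster, while in root it was the lowest in 10 of 18 groups for GRXS13 and in 4 of 18 for the summed cluster. For GRX480 it was the lowest in 10 of 17 shoot groups and in 3 of 18 root groups. The part of this order in the shoot results was not tested beyond the fits without each number and with the number as a block. For the SA rise of GRX480 in both organs, and for that of GRXS13 in root and in shoot at 24 and 48 h, the call was kept under every alternative run.

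The bases before the start sites of GRX480 and GRXS13 are shown because these genes rose together with SA and TGA factors, known to bind TGACG, are linked to the family. The 300 bases before each annotated start are given 5′ to 3′ on the gene's strand from TAIR10.1, chr1:10014257-10014556 and chr1:977912-978211, both on the minus strand, with TGACG on either strand and ACGTG, the core known to be bound by ABA-response bZIP factors, in capitals.
GRX480: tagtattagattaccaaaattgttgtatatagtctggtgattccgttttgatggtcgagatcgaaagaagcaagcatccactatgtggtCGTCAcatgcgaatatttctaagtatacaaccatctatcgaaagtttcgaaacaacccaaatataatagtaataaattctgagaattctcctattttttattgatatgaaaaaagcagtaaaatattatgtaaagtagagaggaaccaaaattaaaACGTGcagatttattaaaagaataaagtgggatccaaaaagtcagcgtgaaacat
GRXS13: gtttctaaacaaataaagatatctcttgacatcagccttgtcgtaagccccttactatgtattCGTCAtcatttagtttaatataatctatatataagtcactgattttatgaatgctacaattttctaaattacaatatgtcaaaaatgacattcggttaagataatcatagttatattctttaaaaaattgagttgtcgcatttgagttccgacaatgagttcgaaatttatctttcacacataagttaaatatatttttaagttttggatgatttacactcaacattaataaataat
TGACG was found on the opposite strand at -211 in GRX480 and at -237 in GRXS13, counted back from the start, and in no other member. ACGTG was found in GRX480 (-55), AT3G62930 (-49, opposite strand), AT4G15680 (-125) and AT4G15700 (-197). Of 27443 gene starts in the genome, 21.3% hold TGACG and 25.6% hold ACGTG in a window of this length, on either strand, and no base was shared by both motifs in these windows. A match is a description of the letters and not of binding.

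Over the 38 group means, centred within each tissue, the genes whose pattern was most like that of GRX480 among 16285 were WRKY51 (Pearson r = 0.964), SUFE2 (0.959), NPR4 (0.958), ATAF2 (0.957) and WRKY33 (0.953). For GRXS13 they were CPK31 (0.951), HR3 (0.949), AT4G22305 (0.946), AT5G03350 (0.941) and AT5G66910 (0.939). These are correlations over groups that share libraries and scaling, given as a description. NPR4 is an SA receptor and the WRKY proteins are transcription factors.

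AT3G62930 moved against this pattern in SA-treated roots, and its direction changed with time. At 1 h it was at 1.09, 0.777 and 1.16 CPM against 3.57, 4.64 and 5.52 CPM in the control, and at 2 h at 0.456, 0.222 and 0.239 CPM against 5.18, 4.77 and 3.57 CPM. At 7 h the order was turned, with 10.7, 11.3 and 10.9 CPM against 5.94, 5.49 and 6.55 CPM, and at 48 h it was again lower, with 2.46, 2.25 and 2.51 CPM against 5.76, 5.69 and 5.50 CPM. The groups overlapped at none of these 4 times. In order of time the log2 fold changes were -2.16 ± 0.23, -3.68 ± 0.28, -0.85 ± 0.20, 0.86 ± 0.18, -0.04 ± 0.18 and -1.22 ± 0.21, all called (edgeR adjusted p of 1.08e-15 to 0.000269) except the value of 24 h (adjusted p = 0.853). All 5 calls were kept under every alternative run, and the control stayed between 4.51 and 6.22 CPM in mean. In shoot it was called at 48 h alone, at 2.76, 2.26 and 2.21 CPM against 4.23, 5.91 and 5.34 CPM (-1.09 ± 0.36, adjusted p = 0.00798), a call lost without the libraries numbered 2 (-0.86).

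**Figure D2:**
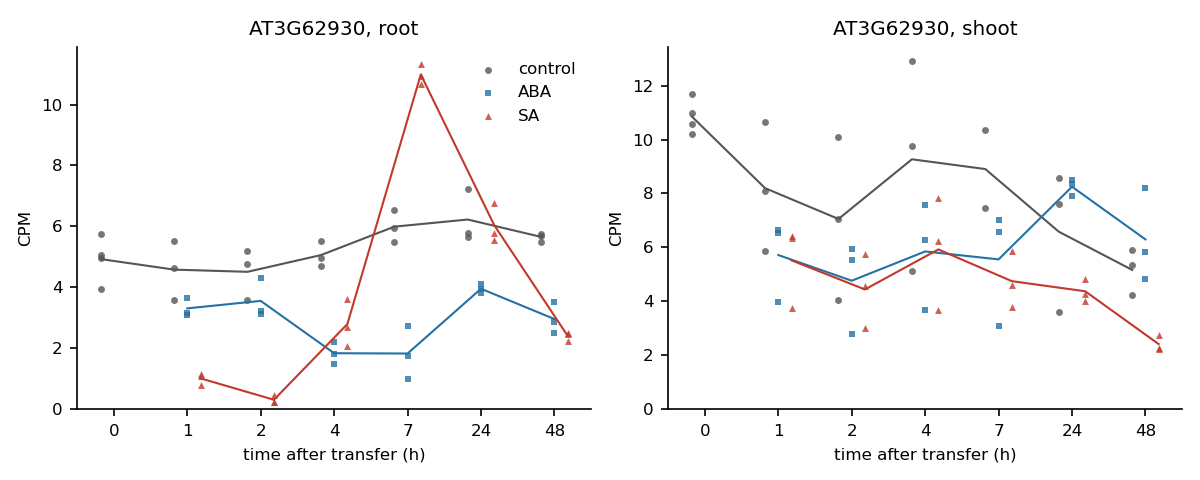
Level of AT3G62930 in CPM on a linear axis against hours after transfer, in root and shoot, with 1 point per library and lines through the group means of control, SA and ABA. In root the SA line drops to a mean of 0.305 CPM at 2 h, crosses the control to 10.99 CPM at 7 h and is below it again at 48 h.

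AT5G18600, the member with the highest level in shoot at 0 h, was almost silent in root until late in the SA course. It had 0 reads in the 3 control roots of 24 h and 5, 17 and 18 reads in the SA roots, at 0.298, 0.823 and 0.519 CPM. At 48 h the SA roots held 124, 105 and 118 reads, at 4.18, 3.86 and 3.90 CPM, against 0, 4 and 0 reads in the controls. No SA library overlapped a control library at either time. At 24 h the level was at least 20.7-fold higher against a floor of 3 counts over the control group (edgeR adjusted p = 3.43e-06), and at 48 h the log2 fold change was 5.90 ± 0.66 (adjusted p = 9.73e-10). With DESeq2 the call at 48 h was lost (log2 fold change 4.99, adjusted p = 0.0680, in a range of 8.65e-10 to 0.0680 over 9 alternatives), and the fitted value was 4.5 without the libraries numbered 3. Without those numbered 2, among them the control with the 4 reads, the controls hold 0 reads and the fitted value of 10.1 is no bound.

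In the roots of 24 and 48 h, the summed shoot markers RBCS1A, CAB1, RBCS2B and LHCB2.3 overlapped between SA and control. Their part in the rise of AT5G18600 was not tested. They were at 17.4 to 19.6 CPM in the SA roots of 48 h and at 4.73, 57.9 and 15.2 CPM in the controls, the control with 57.9 CPM being the one with the 4 reads. At 24 h they were at 9.05 to 11.8 CPM under SA and at 7.39 to 57.6 CPM in the controls. Singly, none of the 4 was called at 48 h, while RBCS1A and RBCS2B were called lower at 24 h. In shoot, AT5G18600 was called lower with SA at 48 h, at 9.29, 9.07 and 11.5 CPM against 13.6, 19.4 and 16.3 CPM (-0.74 ± 0.31, edgeR adjusted p = 0.0307). That call was lost with DESeq2's size factors (-0.63), with DESeq2 (-0.61) and without the libraries numbered 2 (-0.48).

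The changes of the 5 cluster genes with SA were called at few times. In root their summed counts were 2 to 144 reads a library, and the sum was called at 7 h and 24 h, higher in both. At 24 h it was at 4.11, 5.37 and 3.81 CPM against 2.37, 1.23 and 2.38 CPM in the control, without overlap, a log2 fold change of 1.12 ± 0.26 (edgeR adjusted p = 0.000247). At 7 h it was at 2.43, 1.61 and 1.41 CPM against 0.590, 0.875 and 0.932 CPM, also without overlap (1.15 ± 0.32, adjusted p = 0.00205), a call lost without the libraries numbered 1 (0.76). Of single genes, AT4G15660 and AT4G15680 rose at 7 h (1.18 ± 0.47 and 1.54 ± 0.44) and AT4G15660, AT4G15670 and AT4G15700 at 24 h (1.17 ± 0.38, 1.93 ± 0.49 and 2.22 ± 0.63). AT4G15680 fell at 2 h, from 49, 17 and 4 reads to 4, 1 and 1 (-2.27 ± 0.63, adjusted p = 0.00167), and AT4G15690 was called at no time. Among these single-gene calls, that of AT4G15670 at 24 h was kept under every alternative run, while each of the others was lost under 1 or 2 of them.

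Also in root, AT4G15700 held 7, 4 and 2 reads in the controls of 2 h and 0 in all 3 SA libraries, at least 2.36-fold lower with SA against the floor of 3 counts over the group (edgeR adjusted p = 0.0190, lost without the libraries numbered 1 or 3). It was higher at 48 h, with 10, 13 and 6 reads against 1, 1 and 5 (1.67 ± 0.69, adjusted p = 0.0275), which was lost under 5 of 8 alternatives. These counts are too low to fix the size of either difference.

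In shoot the cluster was lower with SA at 48 h. The sum was at 8.14, 9.79 and 9.02 CPM against 14.6, 18.1 and 24.2 CPM in the control, without overlap (-1.02 ± 0.45, edgeR adjusted p = 0.0453). The call was lost with DESeq2's size factors (-0.96), with DESeq2 (-0.96), without the libraries numbered 2 (-1.13) and without those numbered 3 (-0.86), all in the same direction, and without those numbered 1 the sum was called at 4 times. AT4G15680 was the cluster gene called on its own, at 1.68, 2.39 and 1.98 CPM against 4.98, 6.52 and 6.65 CPM (-1.57 ± 0.45, adjusted p = 0.00208), a call lost without the libraries numbered 2 (-1.64). At this time the choice of scaling moved the median of all genes by 0.119, and the direction of the cluster was the same under both.

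**Figure D3:**
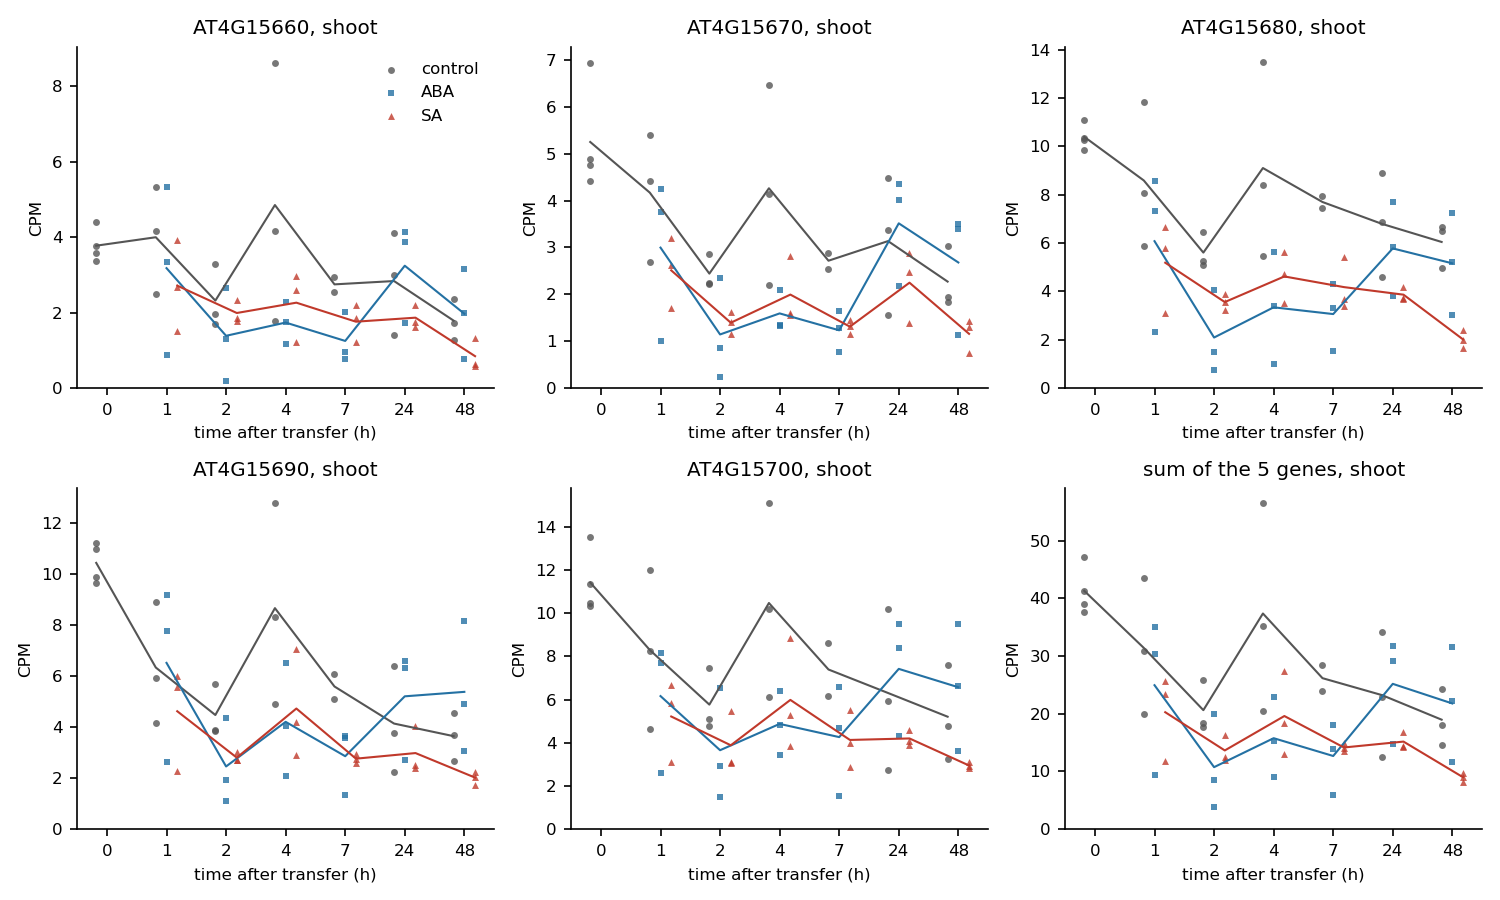
Levels of the 5 chromosome 4 cluster genes and of their sum in shoot in CPM against hours after transfer, with 1 point per library and lines through the group means of control, SA and ABA, the shallow control library of 7 h left out. The 5 genes follow one another, and the libraries of a group spread widely, so that groups overlap at most times.

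The cluster genes varied together across the 19 shoot groups, with pairwise Pearson r of 0.720 to 0.945 over the 10 pairs (median 0.888), from groups that share libraries and from genes whose reads may be split. The shallow control library of 7 h was kept in these group means. There AT4G15700 stood at 15.1 CPM from 1 read and the other cluster genes at 0 CPM. Pairs with AT4G15700 gave r of 0.720 to 0.761, and pairs without it 0.885 to 0.945. The likeness was not particular to the cluster. AT3G62930, which lies outside it, gave r of 0.647 with AT4G15700, of 0.827 to 0.895 with the other cluster genes and of 0.819 with AT5G18600. The genes most like the sum over the 38 group means were AT1G80530 (r = 0.726), AT2G38300 (0.723), AT5G52882 (0.717), HK1 (0.708) and AT5G40450 (0.705), all lower than the likeness found for GRX480 and GRXS13. HK1 encodes a histidine kinase.

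**Figure D4:**
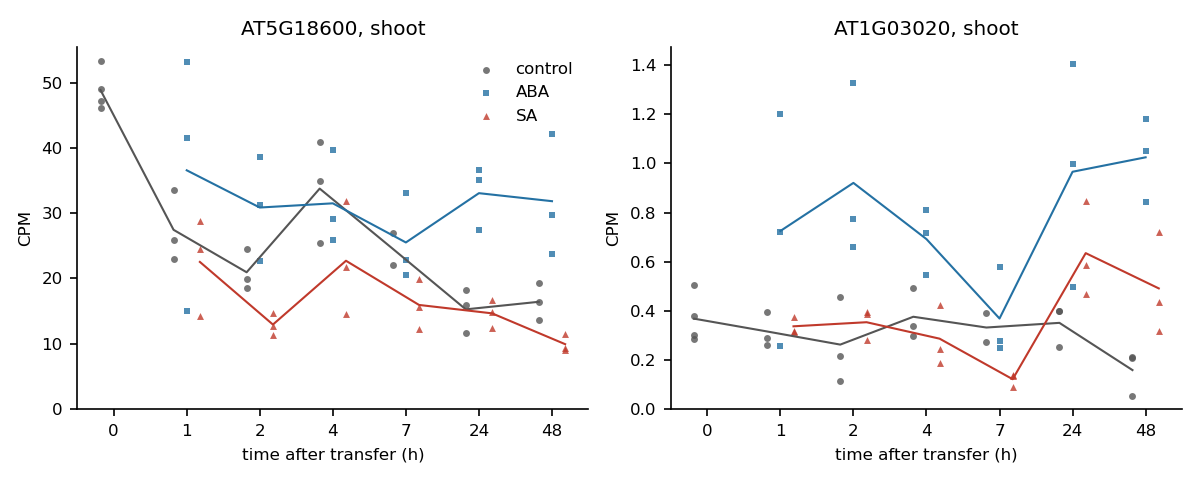
Shoot levels of AT5G18600 and AT1G03020 in CPM against hours after transfer, with 1 point per library and lines through the group means of control, SA and ABA. At 24 and 48 h the ABA libraries of AT5G18600, at 23.7 to 42.1 CPM, lie above the controls of the same time, and at 48 h those of AT1G03020 do too.

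With ABA, GRX480 was lower than in the control of the same time, in both organs and at every time. At 1 h its mean in ABA roots was 6.96 CPM, against 4.75 CPM at 0 h and 25.3 CPM in the control. In shoot these means were 1.01, 0.478 and 2.40 CPM. In root, 19 of 54 member-by-time comparisons were called, all 19 lower, where 44.3% of all gene comparisons were called, 22.7% higher and 21.6% lower, and the joint test called 5 of 9 members, where 76.8% of all genes were. In shoot, 15 of 60 were called, 5 higher and 10 lower, against 22.4% (11.7% higher and 10.8% lower), and 6 of 10 by the joint test, against 50.1%. Without the libraries numbered 1 the root count was 12 and the shoot count 27, and without those numbered 2 the shoot count was 8. The joint count in shoot was 10 without the libraries numbered 1 and 2 without those numbered 2.

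GRX480 in ABA-treated roots was at 9.24, 7.24 and 4.41 CPM at 1 h, below all 3 controls (25.5, 28.1 and 22.2 CPM), and at 2.49, 2.16 and 2.82 CPM at 48 h, below 10.1, 10.1 and 9.18 CPM. The log2 fold changes were -1.83 ± 0.16, -1.79 ± 0.17, -1.61 ± 0.17, -1.64 ± 0.17, -1.63 ± 0.19 and -2.01 ± 0.20 in order of time, all called (edgeR adjusted p of 1.67e-13 to 4.70e-10) and all kept under every alternative run. In shoot it was at 0.928, 0.831 and 1.18 CPM at 2 h against 2.65, 3.04 and 2.75 CPM, and at 0.158, 0.406 and 0.270 CPM at 48 h, from 6, 13 and 9 reads, against 0.537, 0.687 and 0.911 CPM. Neither time showed overlap. The shoot fold changes were -1.35 ± 0.24, -1.50 ± 0.22, -1.84 ± 0.26, -1.45 ± 0.33, -1.11 ± 0.30 and -1.38 ± 0.34, all called (adjusted p of 3.79e-07 to 0.00628). Of these, the calls at 2 and 4 h were kept under every alternative run, that at 1 h was lost in the fit of the compared libraries alone (-1.29), that at 24 h without the libraries numbered 2 (-1.0), and those at 7 and 48 h without those numbered 3 (-1.10 and -1.16).

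GRXS13 was called with ABA at no single time in either organ. In root its log2 fold changes were -0.42 to 0.20, with SEs of 0.26 to 0.28, and in shoot -1.07 to -0.56, with SEs of 0.47 to 0.53. The joint test in shoot passed (edgeR adjusted p = 0.0400) and was lost with DESeq2 and without the libraries numbered 2, 3 or 4, in a range of 1.43e-07 to 0.464 over 9 alternatives. These SEs leave room in shoot for a difference of the size seen for GRX480.

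AT3G62930 was called lower in ABA-treated roots from 2 h on. At 1 h its log2 fold change of -0.47 ± 0.20 was just short of a call (edgeR adjusted p = 0.0523) and close to that of 2 h. At 7 h it was at 1.73, 2.74 and 1.00 CPM against 5.94, 5.49 and 6.55 CPM in the control, without overlap, and the log2 fold changes from 2 h on were -0.49 ± 0.20, -1.45 ± 0.21, -1.73 ± 0.20, -0.65 ± 0.19 and -0.87 ± 0.20 in order of time (edgeR adjusted p of 8.99e-10 to 0.0345). The call at 2 h was lost under 5 of 9 alternatives (-0.33 without the libraries numbered 1) and that at 24 h without those numbered 2 (-0.52). The control course of this gene was flat, so at 7 h the ABA and SA roots lay on opposite sides of it.

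Of the cluster genes in ABA-treated roots, AT4G15680 fell at 2, 4, 7, 24 and 48 h, by 1.07 to 2.04 on the log2 scale. At 4 h it held 6, 5 and 4 reads (0.242, 0.136 and 0.137 CPM) against 16, 15 and 15 in the controls (0.679, 0.565 and 0.536 CPM), without overlap (-1.80 ± 0.51, edgeR adjusted p = 0.00286). The calls at 4 and 48 h were kept under every alternative run, while that at 7 h was lost under 5 of 8 and that at 24 h under 4 of 9. The value of 24 h went to -0.30 without the libraries numbered 3, and that of 2 h, also lost, to -0.99 without those numbered 1. AT4G15690 fell at 24 and 48 h (-1.27 ± 0.47 and -1.71 ± 0.53), and both calls were lost without the libraries numbered 1 (-1.36 and -1.6) or 3 (-0.95 and -1.9), the former also with DESeq2 (-1.26). AT4G15700 fell at 1 h, with 1, 1 and 0 reads against 4, 7 and 3, a ratio of 8.72 between control and ABA (95% interval 2.00 to 79.1, counting error only), and this call was lost without any 1 of the 3 replicate numbers. AT4G15660 and AT4G15670 were called at no time. The values of AT4G15670 were positive from 4 h on, from 1.46 ± 1.20 at 4 h to 0.47 ± 0.61 at 48 h. The summed cluster fell at 1, 2, 4, 7 and 48 h, by 0.92 to 1.14 on the log2 scale (adjusted p of 0.00294 to 0.0396), and the call at 4 h was kept under every alternative run. Without the libraries numbered 2 the sum was called at 3 times and without those numbered 3 at 2 times.

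In ABA-treated shoots the cluster was lower at 4 h, with a sum of 9.00, 15.3 and 22.9 CPM against 20.4, 35.2 and 56.5 CPM, groups that overlapped (-1.17 ± 0.44, edgeR adjusted p = 0.0384). AT4G15660, AT4G15670 and AT4G15680 were called at that time (-1.40 ± 0.54, -1.39 ± 0.47 and -1.32 ± 0.41) and AT4G15680 also at 2 h (-1.35 ± 0.43). All 5 of these calls, that of the sum included, were lost without the libraries numbered 2, with log2 values of -1.45 to -1.19 in that fit. At 4 h the calls of the sum, AT4G15660 and AT4G15670 were also lost without those numbered 3 (-1.13, -0.92 and -1.23), and that of AT4G15660 without those numbered 4 (-1.37). In a fit of only the libraries compared, the calls other than that of AT4G15670 were lost, at -1.40 to -1.21. The value of AT4G15680 at 2 h was -2.20 without the libraries numbered 3 and -1.06 without those numbered 1.

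AT5G18600 and AT1G03020 were higher with ABA than in the control of the same time in shoot. In ABA shoots the group means of AT5G18600 were 25.5 to 36.6 CPM, below its 0 h mean of 48.9 CPM. Its control means were 15.3 and 16.4 CPM at 24 and 48 h. AT5G18600 was at 27.4, 35.1 and 36.7 CPM at 24 h against 11.7, 16.0 and 18.2 CPM, without overlap (1.11 ± 0.29, edgeR adjusted p = 0.00457), and at 23.7, 29.7 and 42.1 CPM at 48 h against 13.6, 19.4 and 16.3 CPM (0.95 ± 0.29, adjusted p = 0.0180). The call at 24 h was lost without the libraries numbered 2 (1.13) and that at 48 h without those numbered 2 or 3 (1.17 and 0.70). AT1G03020 was the least abundant member, with 1071 reads over the 58 shoot libraries and 6 over the 58 root libraries, where it was not tested. In control shoots its mean was 0.368 CPM at 0 h and 0.159 CPM at 48 h, itself a called fall (-1.17 ± 0.48, edgeR adjusted p = 0.0494). At 48 h AT1G03020 held 45, 27 and 35 reads with ABA (1.18, 0.843 and 1.05 CPM) against 7, 2 and 7 in the controls (0.209, 0.0550 and 0.213 CPM), without overlap (2.69 ± 0.47, adjusted p = 1.97e-05). It was also called at 2 h (1.67 ± 0.41) and at 24 h (1.41 ± 0.42), and the calls at 2 and 48 h were kept under every alternative run, while that at 24 h was lost under 3 of 10 (1.13 without the libraries numbered 1 and 1.22 without those numbered 3). With SA it was called at 48 h, with 14, 33 and 4 reads (1.75 ± 0.51, adjusted p = 0.00251), and this was lost without the libraries numbered 2 (0.94).

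**Figure D5:**
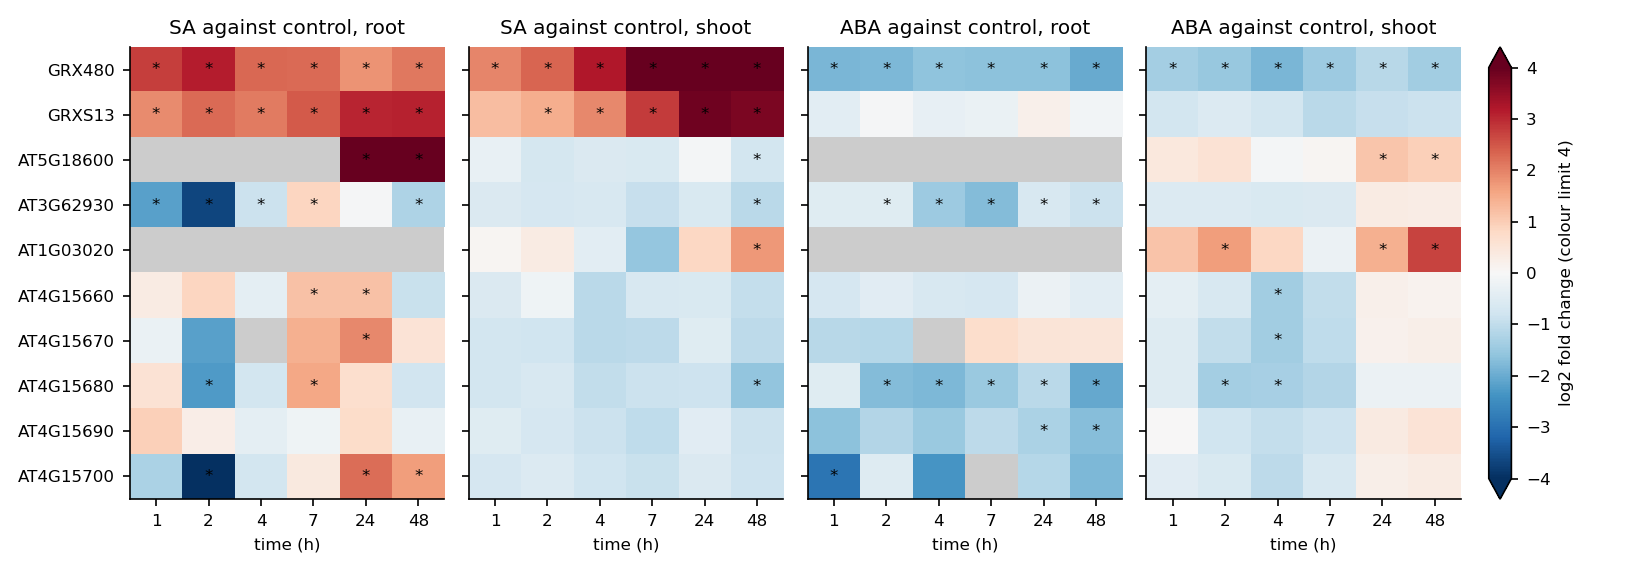
Log2 fold changes of the 10 members against the control of the same time, for SA and ABA in root and shoot, as colours limited at 4 in either direction, with an asterisk where the edgeR adjusted p was under 0.05 and grey where the groups together held fewer than 10 reads or the gene was not tested. Colours of groups with 0 reads come from fitted values and are no bounds. The rows of GRX480 and GRXS13 are higher with SA in both organs, and the GRX480 row is lower with ABA at all 6 times in both.

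The hormones were also compared with each other directly, from the same fits. In root 31 of 54 member-by-time comparisons were called, 2 higher and 29 lower with ABA than with SA, where 64.8% of all gene comparisons were called, 33.7% higher and 31.1% lower, and in shoot 25 of 60, 13 higher and 12 lower, against 43.7% (21.9% higher and 21.8% lower). The joint test called 8 of 9 members in root, against 94.7% of all genes, and 6 of 10 in shoot, against 82.6%. In shoot the gap was widest for GRX480 at 48 h, where the SA libraries held 40.1, 44.8 and 52.2 CPM and the ABA libraries 0.158, 0.406 and 0.270 CPM, a log2 difference of -7.37 ± 0.26 (edgeR adjusted p = 3.91e-27), and its smallest value in either organ was -3.30 ± 0.21, in shoot at 1 h. For GRXS13 the difference was called at all 6 times in both organs, from -1.94 ± 0.47 to -4.82 ± 0.53. AT5G18600 in shoot had the opposite sign, higher with ABA than with SA at 2, 7, 24 and 48 h, by 1.70 ± 0.31 at 48 h (adjusted p = 4.80e-06). The shoot counts were 15 by time without the libraries numbered 2 and 10 by the joint test without those numbered 1.

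Whether the organs differed in their response to SA was tested as an interaction over both tissues, and 7 of 10 members were called jointly over the 6 times, where 72.1% of all genes tested were. For GRX480 the root response minus the shoot response was 0.76 ± 0.26 at 1 h and 0.80 ± 0.23 at 2 h and then -0.83 ± 0.24, -2.72 ± 0.29, -3.52 ± 0.27 and -3.71 ± 0.28 at 4, 7, 24 and 48 h, called at every time (edgeR adjusted p of 2.16e-20 to 0.0340). Thus its rise was larger in root at 1 and 2 h and larger in shoot from 4 h on. At 2 h the SA shoot libraries share no name prefix with their controls, so prefix and treatment cannot be told apart there. For GRXS13 the differences were -0.73 to 0.78 with SEs of 0.53 to 0.57, none called, and SEs of this size leave room for differences between the organs. AT3G62930 differed at 1 h (-1.61 ± 0.45), 2 h (-3.05 ± 0.51) and 7 h (1.92 ± 0.42), and AT5G18600 at 48 h by 6.89 ± 0.79. The other 4 were the cluster genes AT4G15660, AT4G15670, AT4G15680 and AT4G15700. The count was 3 without the libraries numbered 2 and 4 without those numbered 3.

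For ABA the joint interaction was called for AT3G62930 (edgeR adjusted p = 0.00553), 1 of 10 members, where 38.3% of all genes were, and for none without the libraries numbered 2 or without those numbered 3. It was called at no single time, the values being 0.06 ± 0.41 at 1 h and -1.14 ± 0.45 at 7 h. For GRX480 the differences between organs in the response to ABA were -0.60 to 0.24 with SEs of 0.29 to 0.45, none called.

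The labels give library names whose prefix may mark how libraries were made or sequenced. In 22 of the 24 hormone groups, all libraries share a prefix with the controls of the same time. In SA roots of 24 h only replicate 1 does, and there GRX480 was at 37.5 CPM in replicate 1 and at 31.1 and 33.5 CPM in the other 2, GRXS13 at 166 and at 186 and 204 CPM, and AT5G18600 at 0.298 and at 0.823 and 0.519 CPM. In SA shoots of 2 h no library does, so prefix and treatment cannot be told apart at that time.

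A list of 11 other CC-type genes was counted in the same way. At 0 h 8 of 11 were called between organs, where 80.2% of all genes tested were, and all 8 were lower in root, with a median of the 11 of -3.33 on the log2 scale against -0.06 for all genes tested. In SA roots the joint test called 9 of 9 tested, where 92.6% of all genes were, and 8 at 48 h, 4 higher and 4 lower, where 74.9% of all genes were called. AT5G11930 rose at all 6 times in root (1.51 to 2.66) and from 4 h on in shoot (1.49 to 2.61), and AT1G06830 fell at 24 h in both organs, from 6.36 to 0.00961 CPM in the root means. In ABA roots AT1G06830 fell at all 6 times, to means of 0 to 0.170 CPM against 2.09 to 6.36 CPM in the controls, and AT2G47870 rose at all 6, to 0.313 to 2.13 CPM against 0 to 0.0796 CPM.

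Other lists linked to the family held genes of both directions. Among CPYC and CGFS glutaredoxins, the classes found across eukaryotes, 10 of 10 were called at 48 h in SA roots, where 74.9% of all genes were, 6 higher and 4 lower with a median of 0.33, and GRXC2 rose by 1.3 there and by 1.72 in SA shoots. Of 10 TGA factors 8 were called at that time, close to the same 74.9%, 6 higher and 2 lower, and TGA7 rose by 1.57 there and TGA3 by 2.00 in SA shoots. All 5 TOPLESS corepressors rose in SA roots at 2 h, by 0.36 to 0.96 (median 0.52), and all 6 genes of glutathione synthesis and disulfide reduction by 0.19 to 0.98 (median 0.33). At that time 61.5% of all genes were called, counting both directions. Of 6 nitrate response genes 5 were called in SA roots at 2 h, 4 of them lower, and NRT1.1, a nitrate transporter and sensor, fell at every time other than 7 h (-2.41 at 2 h), while NIR1, nitrite reductase, fell at 2 h (-1.33) and rose at 7 h (1.24). After 2 h of ABA in root, 3 of 10, 6 of 10, 1 of 5, 4 of 6 and 4 of 6 genes of these 5 lists were called, in the same order, against 52.6% of all genes.

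The 4 root markers moved with SA too. All 4 were called lower in SA roots at 2 h (median -1.25 on the log2 scale) and at 48 h (median -1.99). At these times 61.5% and 74.9% of all genes were called in either direction. The part of the root markers in the results of the members was not tested.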

How the data were processed

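The values are whole-number read counts per gene as deposited by the authors, 1 column for each of the 58 root and 58 shoot libraries. Per the labels' protocols the libraries were stranded, oligo-dT selected and read in pairs of 150 bases. HISAT2, featureCounts and TAIR10 are named in the submitters' processing notes, while the strand setting and the treatment of reads with several matches are not given in the sources used here. Counts were filtered with filterByExpr, scaled by TMM and tested with edgeR 4.0.16 (R 4.3.3; quasi-likelihood F test, 1 mean per group, Benjamini-Hochberg adjustment over all genes, threshold 0.05), per tissue, or over both for 0 h and for the interactions. Joint tests took the 6 times together. DESeq2 1.42.0 and the other alternatives are given in the closing section, and the fits were checked on simulated counts.

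All 10 members are reported. Likeness used log2(CPM + 0.5), genes averaging under 5 CPM left out, and the 5 highest are named. List examples are the 2 genes with the smallest joint p in a comparison. The members and lists were chosen with earlier results of these data known. Depth limits the low members most, and intervals and floors of 3 counts cover counting error only. Sequences and loci are from RefSeq TAIR10.1.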

Additional observations from a re-analysis of the deposited data

Results flagged for a closer look

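Among the 4 libraries of a 0 h group, 1 library stood apart by Dixon's ratio of gap to range, past its 95% critical value, in 4 of 19 combinations of member and organ, where chance gives about 1 in 20. These 19 come from the same 8 libraries, 4 of each organ, and are not independent. The ratio was 0.865 for GRX480 in root (3.50 CPM in replicate 3 against 5.08 to 5.32 CPM), 0.831 for GRXS13 in shoot (23.0 CPM in replicate 1 against 10.9 to 12.9 CPM) and 0.878 for AT4G15670 in root. For AT5G18600 in root it was 1, from a single read in 1 library and 0 in the others, which alone fixes the ratio.

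The responses to SA differed between root and shoot by the joint interaction test of edgeR for 7 members, with adjusted p of 3.38e-30 for GRX480, 7.18e-11 for AT5G18600, 3.91e-09 for AT3G62930, 0.00117 for AT4G15680, 0.00602 for AT4G15670, 0.0268 for AT4G15700 and 0.0401 for AT4G15660. GRX480 had the larger rise in root at 1 and 2 h and in shoot from 4 h on, with prefix and treatment not separable in shoot at 2 h. The response to ABA differed for AT3G62930 (edgeR adjusted p = 0.00553).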

How the results depend on the processing

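Over 577 results of single members and 4194 values under alternatives, edgeR and DESeq2 gave 0 reversals, 168 calls lost and 165 gained. All 10 members stayed called between organs at 0 h in every alternative. The replicate number was tried as a block. Same-numbered shoot libraries deviated together with a mean r of 0.331, over 0.1 in 43 of 48 pairs, against a mean of -0.161 for different numbers. Root libraries did so in 26 of 54 pairs (mean 0.0730). As not every pair was over 0.1 in either organ, the fits without the block are the ones reported. With the block, shoot member-by-time calls went from 15 to 31 for SA and from 15 to 31 for ABA, ABA joint calls in shoot to 10, control shoot joint calls to 8 against 0 h and to 5 among 4, 7 and 24 h, the ABA interaction to 3, and the times at which the summed cluster was called in shoot to 2 for SA and 2 for ABA. With only the libraries compared, the SA shoot count was 30, and the cluster was called at 2 times for SA in shoot and at 3 for ABA in root. With DESeq2 the ABA interaction gave 3 members, and with DESeq2 or its size factors the cluster was called at 0 times for SA in shoot.

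Leaving out each replicate number in turn gave, by time, 8 to 37 calls for SA in shoot, 12 to 19 for ABA in root, 8 to 27 for ABA in shoot and 15 to 31 for ABA against SA in shoot. Joint calls in shoot were 2 to 10 for SA, 2 to 10 for ABA and 4 to 10 for ABA against SA. Joint control calls were 2 to 9 in shoot against 0 h, and among 4, 7 and 24 h 2 to 4 in root and 1 to 5 in shoot. The interactions gave 3 to 8 members for SA and 0 to 1 for ABA. The cluster was called at 1 to 2 times for SA in root, 0 to 4 for SA in shoot, 2 to 5 for ABA in root and 0 to 1 for ABA in shoot. In root, the SA calls were 23 to 27. The causes were not tested. Low read counts limit the cluster genes, AT5G18600 and AT1G03020 in root.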
